A study of Drosophila melanogaster with 15 samples.

Results

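Enzymes that remove superoxide and peroxides were followed by their mRNA levels in whole male *Drosophila melanogaster* of 5 genotypes under 3 conditions. The list held 10 gene names, *Sod*, *Sod2*, *Cat*, *Trxr-1*, *Trx-2*, *Jafrac1*, *Jafrac2*, *PHGPx*, *Prx5* and *keap1*, and a locus belonged to it when its deposited name held one of them. This found 7 loci among the 10529 analysed, with *keap1* spelled *Keap1* there. *Sod*, *Trx-2* and *Prx5* were not analysed here. Of the 7 loci, 5 name 1 gene. The *Sod2* locus is listed jointly for *Sfp53D*, *Sod2* and *unc-104*, and the *Jafrac2* locus jointly for *CG1271* and *Jafrac2*, so their values are called those of the *Sod2* joint locus and the *Jafrac2* joint locus.

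The study asks how the Dystrophin-Glycoprotein Complex (DGC), a membrane complex whose loss causes muscular dystrophies in humans, shapes the response to stress. Mutants of the complex were *Dg* (Dystroglycan, alleles O55 over O86), *Dys* (Dystrophin, homozygous for the deficiency Df(3R)Exel6184), *Syn1* (Syntrophin-like 1, Df(3L)BSC450 over the deletion allele ΔSyn1[5-2]) and *Nos* (nitric oxide synthase, Df(2L)BSC230 over ΔNos15), and CantonS/w[1118] flies were the control. The deficiencies also cover genes next to the targeted ones. Flies 1 week old were kept for 5 days at 33°C (temperature stress), for 4 days on yeast paste only (metabolic stress) or for 5 days at 25°C on standard food (unstressed). RNA of about 10 pooled males was sequenced once for each genotype and condition, which gives 15 poly-A libraries and no replicates.

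Aerobic cells constantly form superoxide, which superoxide dismutases turn into hydrogen peroxide, in the mitochondrial matrix through the manganese enzyme encoded by *Sod2*. Hydrogen peroxide is then removed by catalase (*Cat*, peroxisomal) and by peroxiredoxins (*Jafrac1* in the cytosol, *Jafrac2* in the secretory pathway), which are recharged by thioredoxin. Flies lack glutathione reductase, and thioredoxin reductase (*Trxr-1*) therefore keeps both thioredoxin and glutathione reduced. *PHGPx* encodes a peroxidase of the glutathione peroxidase family that uses thioredoxin. *Keap1* is the sensor that holds back CncC, the fly Nrf2, which switches on antioxidant genes.

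Values are FPKM, read fragments scaled to transcript length and library size, as deposited. The locus that carries the targeted gene was listed at 0 in the *Dys* and *Syn1* libraries, against 22.9 to 30.1 FPKM (*Dys*) and 6.07 to 7.60 FPKM (*Syn1*) in control. The joint locus of *CG6700* and *Nos* had 17.7 to 27.2 FPKM in *Nos* mutants and 31.2 to 45.4 in control. The *Dg* locus had 12.5 to 19.3 FPKM in the libraries labelled *Dg* and 12.9 to 14.2 in control, so *Dg* mRNA does not tell these libraries apart. Relative depth, from the steps between low values, spanned 0.798 to 1.12 of the unstressed control library. Whole flies hold many tissues, and here fewer cells of a type and less RNA per cell cannot be told apart.

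The 7 loci covered a wide span of mRNA levels, which FPKM allows to be compared per length. The median over the libraries was 258 FPKM for the *Sod2* joint locus, 193 for *Cat*, 101 for *Trxr-1*, 76.5 for the *Jafrac2* joint locus, 55.4 for *Jafrac1*, 20.1 for *PHGPx* and 3.57 for *Keap1*. *Cat* was above *Trxr-1*, *Jafrac1* above *PHGPx* and *PHGPx* above *Keap1* in 15 of 15 libraries. The other neighbours crossed, since the *Sod2* joint locus exceeded *Cat* in 10 of 15 libraries, *Trxr-1* exceeded the *Jafrac2* joint locus in 12 of 14 and the *Jafrac2* joint locus exceeded *Jafrac1* in 12 of 14. Among the loci that name 1 gene, *Cat* had the highest median.

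Spread over the libraries also differed between members. The SD of log2(FPKM + 1) was 0.61 for the *Sod2* joint locus, against a median of 0.36 for the 292 loci within 2-fold of its level. *Cat* had 0.54 and *Jafrac1* 0.48, against medians of 0.35 (441 loci) and 0.33 (1413 loci). *Keap1* had the lowest SD of the members on this scale, 0.15. The 2233 loci of its level had a median of 0.38, and only 4.25% of them had a lower SD. The added 1 narrows the spread of a gene at such a low level. On FPKM alone the ratio of highest to lowest library was 1.57 for *Keap1* and 1.49 for the *Jafrac2* joint locus. The SDs of the *Jafrac2* joint locus (0.19), *PHGPx* (0.27) and *Trxr-1* (0.32) were also below the medians of their own level, 0.33, 0.33 and 0.33.

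**Figure D1:**
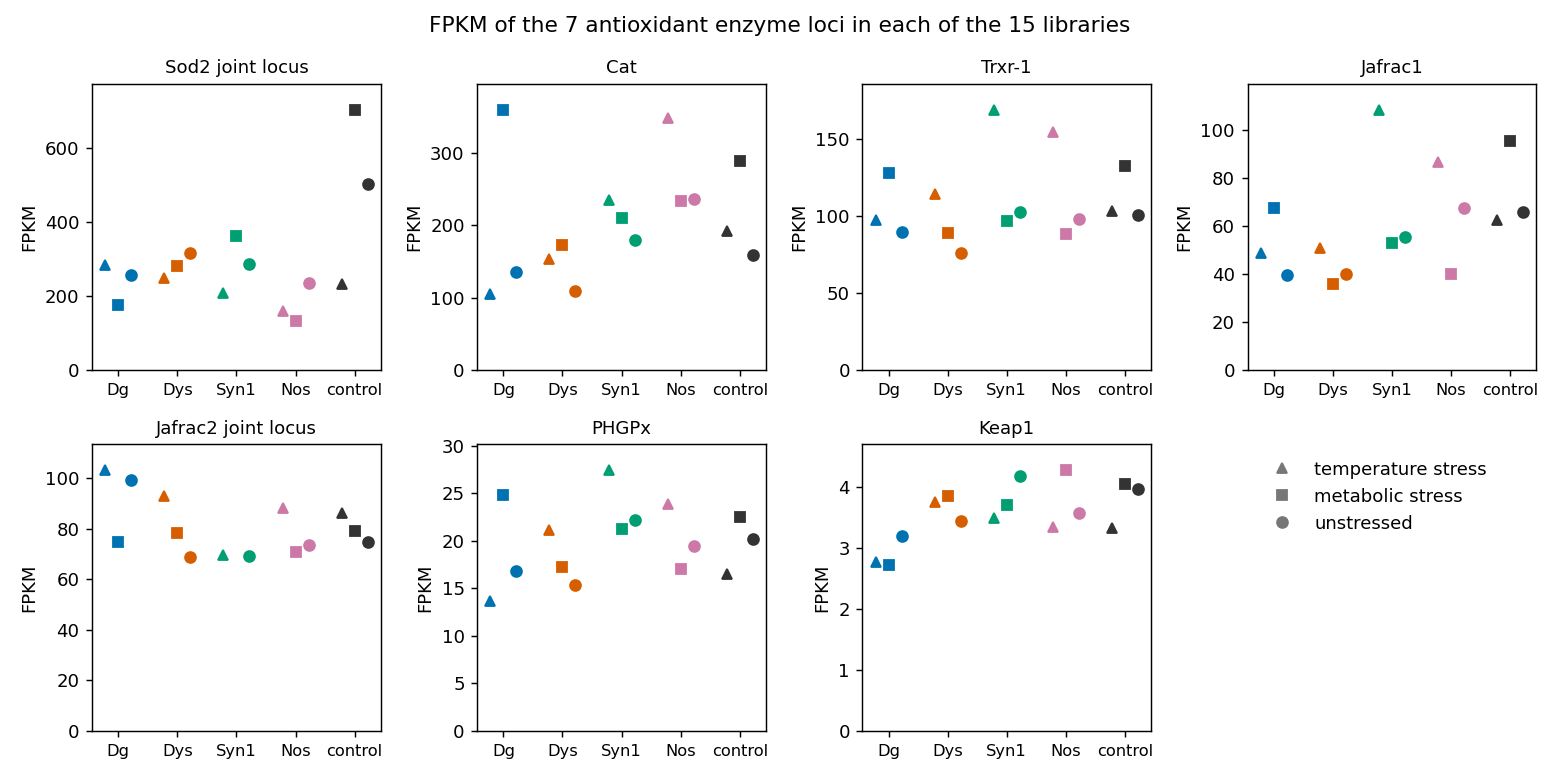
FPKM of each of the 7 loci (y axis, linear from 0) by genotype (x axis, the mutants *Dg*, *Dys*, *Syn1* and *Nos*, then control), with 1 point for each library and a marker for each condition. The *Sod2* joint locus reaches 703 FPKM in the metabolic control library and 133 in the metabolic *Nos* library, while *Keap1* stays between 2.72 and 4.28.

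Stress responses were estimated over the 5 genotypes with limma on log2(FPKM + 1), with terms for genotype and condition. A locus is called changed at a Benjamini-Hochberg adjusted p under 0.1 over all loci. No member was called under temperature stress (0 of 7), where 25.9% of all loci were called, and none under metabolic stress, where 2.93% were. At an unadjusted p under 0.05, 1 of 7 members passed in each, *Trxr-1* under temperature stress and *Cat* under metabolic stress, beside 32.7% of all loci in the heat and 14.5% on the diet. Against a 2-fold change with unadjusted P under 0.1, the rule that follows the study's methods, 0 of 7 members passed under either stress, beside 0.788% of all loci in the heat and 0.779% on the yeast diet. The members had a median log2 change of 0.19 in the heat and of 0.06 on the yeast diet, and that of all loci was -0.01 and -0.02.

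*Trxr-1*, the reductase at the head of the thioredoxin system, was higher under temperature stress in 5 of 5 genotypes. It had 97.5 FPKM in the heated *Dg* library and 89.6 in the unstressed one, 114 and 76.2 in *Dys*, 169 and 103 in *Syn1*, 155 and 98.3 in *Nos*, and 103 and 101 in control. The log2 ratios were 0.58 in *Dys*, 0.71 in *Syn1* and 0.65 in *Nos*, against 0.12 in *Dg* and 0.04 in control. Over the genotypes it averaged 128 ± 32.3 FPKM under temperature stress and 93.5 ± 10.9 unstressed (SD, n = 5 each). The fitted log2 change was 0.42 (SE 0.17, 95% interval 0.04 to 0.80), with an adjusted p of 0.118 that missed the threshold. It passed in 4 of 20 fits with a library or genotype left out, and in 0 of 5 other settings. These were without the heated control library (log2 change 0.54, adjusted p = 0.0593), the heated *Dg* library (0.54, adjusted p = 0.0646), the metabolic *Dg* library (0.42, adjusted p = 0.0939) or all control libraries (0.52, adjusted p = 0.097). The highest adjusted p of the 20 was 0.297, without *Dys* (log2 change 0.38).

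Under metabolic stress *Trxr-1* moved in both directions. It had 128 FPKM in *Dg* and 133 in control on the yeast diet, against 89.6 and 101 unstressed, and it had 97.2 in *Syn1* and 88.4 in *Nos*, against 103 and 98.3 unstressed. In *Dys* it had 88.9 on the diet and 76.2 unstressed. The fitted change was 0.18 (SE 0.17, interval -0.20 to 0.56, adjusted p = 0.721).

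*Cat*, the catalase of peroxisomes, had its widest response on the yeast diet. It had 359.9 FPKM in the metabolic *Dg* library and 135 in the unstressed one, a log2 ratio of 1.40 and the only member ratio on this diet past 2-fold, where 5.11% of all loci in *Dg* were past 2-fold. In *Dys* it had 173 on the diet and 109 unstressed, in *Syn1* 209.8 and 179.9, in *Nos* 233 and 237, and in control 288 and 159. *Cat* was thus above the unstressed level in 4 of 5 genotypes, with *Nos* the exception. The fitted log2 change was 0.62 (SE 0.26, interval 0.06 to 1.19) and the adjusted p was 0.291, so the difference did not pass over all loci.

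In the heat *Cat* had 105 FPKM for *Dg*, 154 for *Dys*, 235 for *Syn1*, 349 for *Nos* and 193 for control. It was above the unstressed level in 4 of 5 genotypes, and here *Dg* was the exception with a log2 ratio of -0.37. The fitted change was 0.27 (SE 0.26, adjusted p = 0.508).

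*Jafrac1*, the cytosolic peroxiredoxin, had 48.8 FPKM in the heated *Dg* library, 50.7 in *Dys*, 108 in *Syn1*, 86.6 in *Nos* and 62.5 in control. The unstressed libraries had 39.7 for *Dg*, 40.0 for *Dys*, 55.4 for *Syn1*, 67.4 for *Nos* and 66.0 for control. The *Syn1* ratio was the widest (log2 0.95, just inside 2-fold), the ratios of *Dg*, *Dys* and *Nos* lay between 0.29 and 0.36, and control was at -0.08. On the yeast diet it had 67.3 for *Dg* and 95.3 for control, both above unstressed, and 35.8 for *Dys*, 53.1 for *Syn1* and 39.8 for *Nos*, all below unstressed. The fitted changes were 0.37 in the heat (SE 0.24, adjusted p = 0.319) and 0.06 on the diet (SE 0.24, adjusted p = 0.957).

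*PHGPx* was expressed at a lower level. In the heat it had 13.6 FPKM for *Dg*, 21.1 for *Dys*, 27.4 for *Syn1*, 23.9 for *Nos* and 16.5 for control, against 16.8, 15.4, 22.2, 19.5 and 20.1 unstressed in the same genotypes. It was above unstressed in *Dys*, *Syn1* and *Nos*, and below it in *Dg* and control. On the diet it had 24.8 for *Dg*, 22.5 for control and 17.3 for *Dys*, all above unstressed, and 21.3 for *Syn1* and 17.0 for *Nos*, both below. The fitted changes were 0.09 (interval -0.28 to 0.46, adjusted p = 0.757) and 0.12 (interval -0.25 to 0.49, adjusted p = 0.828).

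The *Jafrac2* joint locus was higher in the heat in 5 of 5 genotypes by small amounts. It had 103 FPKM for *Dg*, 92.9 for *Dys*, 69.5 for *Syn1*, 88.1 for *Nos* and 86.1 for control, against 99.0, 68.9, 69.3, 73.4 and 74.5 unstressed. The log2 ratios ran between 0.004 in *Syn1* and 0.43 in *Dys*, and the fitted change was 0.19 (SE 0.09, interval -0.02 to 0.40, adjusted p = 0.191). On the diet it had 74.6 in *Dg*, 78.4 in *Dys*, 70.6 in *Nos* and 79.2 in control. Its estimate in the metabolic *Syn1* library was marked as failed, and the fit treats that value as missing (14 libraries).

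*Keap1* had the narrowest intervals of the members under stress, on a scale where the added 1 narrows them for a gene at so low a level. It had 2.77 FPKM for *Dg*, 3.75 for *Dys*, 3.49 for *Syn1*, 3.35 for *Nos* and 3.34 for control in the heat, and it was below its unstressed level in 4 of 5 genotypes, with *Dys* above. The fitted log2 change was -0.11 (interval -0.28 to 0.07, adjusted p = 0.375) in the heat and 0.01 (interval -0.16 to 0.18, adjusted p = 0.981) on the diet.

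The *Sod2* joint locus was lower in the heat in 4 of 5 genotypes. It had 284 FPKM for *Dg*, 249.6 for *Dys*, 209 for *Syn1*, 160.1 for *Nos* and 231 for control, against 258, 317, 287, 236 and 503 unstressed. The control ratio, at log2 -1.12, was the only member ratio past 2-fold in the heat, where 4.83% of all loci in control were. The fitted change was -0.47 (SE 0.26, interval -1.05 to 0.11, adjusted p = 0.244). On the yeast diet it was above unstressed in *Syn1* (363) and control (703) and below it in *Dg* (175), *Dys* (282) and *Nos* (133), with a fitted change of -0.15 (SE 0.26, adjusted p = 0.881).

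**Figure D2:**
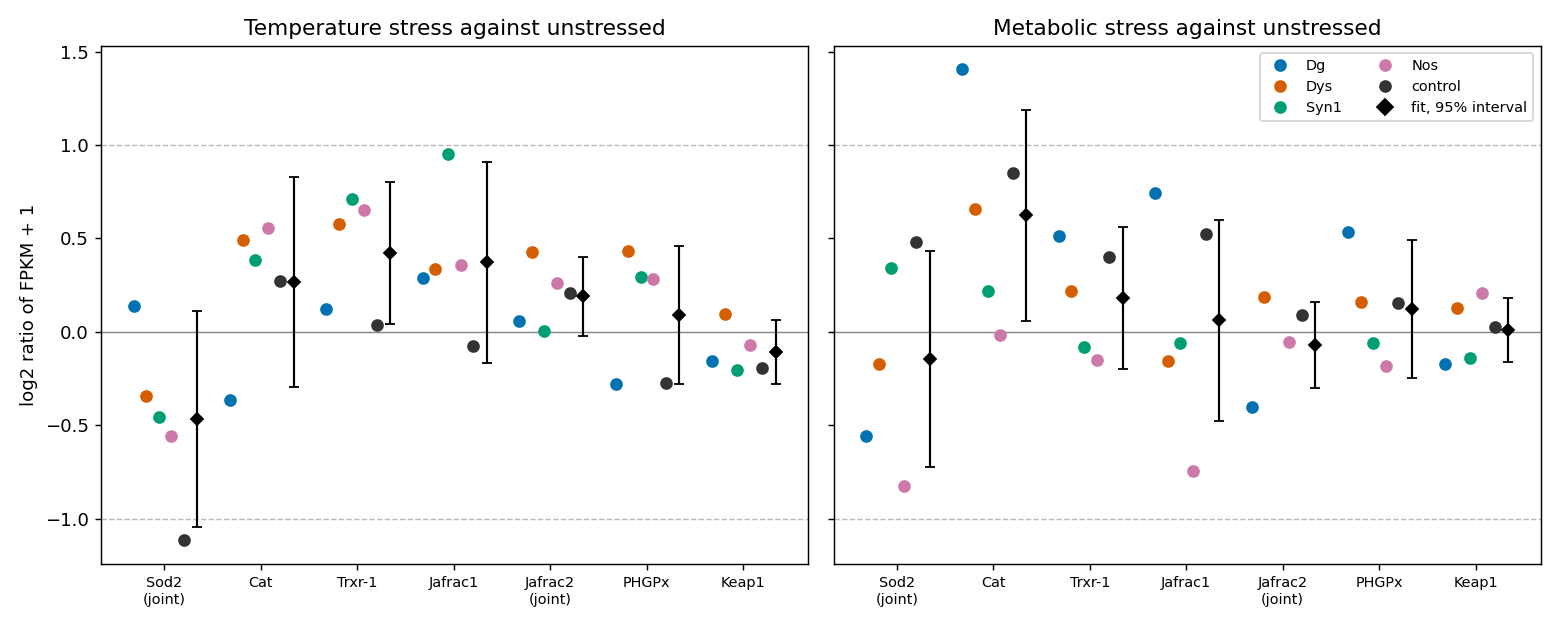
Log2 ratio of FPKM + 1 (y axis) of the stressed to the unstressed library of the same genotype for each locus (x axis), under temperature stress (left) and metabolic stress (right). Coloured points are genotypes, black diamonds are the limma change over the 5 genotypes with its 95% interval, and dashed lines mark 2-fold; in the heat *Trxr-1* is above 0 in 5 of 5 genotypes, and on the diet the *Cat* ratio reaches 1.40 in *Dg*.

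The levels of *Cat*, *Trxr-1*, *Jafrac1* and *PHGPx* were correlated over the 15 libraries. They were singled out after their values were seen, and the permutations exchanged libraries freely, without regard to shared genotypes and conditions. Their 6 pairs had Pearson's r of 0.64 to 0.89 and Spearman's rho of 0.59 to 0.85 on log2(FPKM + 1), with permutation p-values of 3e-05 to 0.0113 for r and 0.00011 to 0.0243 for rho. After Benjamini-Hochberg adjustment over the 21 pairs of members, the values were 0.00063 to 0.0396 for r and 0.00231 to 0.0852 for rho. Without the 2 libraries farthest from the median of the first locus of a pair, r was 0.61 to 0.81, and after removal of the genotype and condition means it was 0.78 to 0.94. *Trxr-1* and *Jafrac1*, the reductase and a peroxiredoxin of the same chain, were the closest pair (r = 0.89, rho = 0.85). The 15 pairs that include another member had r between -0.48 and 0.29 and adjusted p of at least 0.230. For these, r was -0.67 (*Sod2* joint locus and *Cat*) to 0.17 without the 2 farthest libraries and -0.38 to 0.73 (*Jafrac2* joint locus and *Keap1*) after removal of the means.

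Within a genotype, the 4 loci are not separate observations, since they were singled out after their correlated levels were seen. Their signs are given as values only, and the share of all loci above unstressed was not computed. In the heat, 4 of 4 were above unstressed in *Dys* (log2 ratios 0.33 to 0.58), *Syn1* (0.29 to 0.95) and *Nos* (0.28 to 0.65), and 2 of 4 in *Dg* (-0.37 to 0.29) and control (-0.27 to 0.27). On the yeast diet, 4 of 4 were above unstressed for *Dg* (0.52 to 1.40) and control (0.16 to 0.85), 3 of 4 for *Dys* (-0.16 to 0.66), 1 of 4 for *Syn1* (-0.08 to 0.22) and 0 of 4 for *Nos* (-0.75 to -0.02). None of these signs changed with a pseudocount of 0.1 or with median-ratio scaling.

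A model with separate terms for control and mutants asked whether the stress responses of the mutants, as a group, differed from that of control. It called 0 of 7 members for either stress, beside 0% of all loci for temperature stress (0 of 10522) and 0% for metabolic stress (0 of 10510). At an unadjusted p under 0.05 limma passed 390 and 402 loci and 0 members, and its test against 2-fold at unadjusted P under 0.1 passed 29 loci for temperature stress and 44 for metabolic stress. The differences were estimated loosely, for example 0.48 for *Trxr-1* in the heat (interval -0.44 to 1.39) and -0.58 for *Jafrac1* on the diet (interval -1.84 to 0.68). Differences between single genotypes in their response were not tested, with 1 library each.

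**Figure D3:**
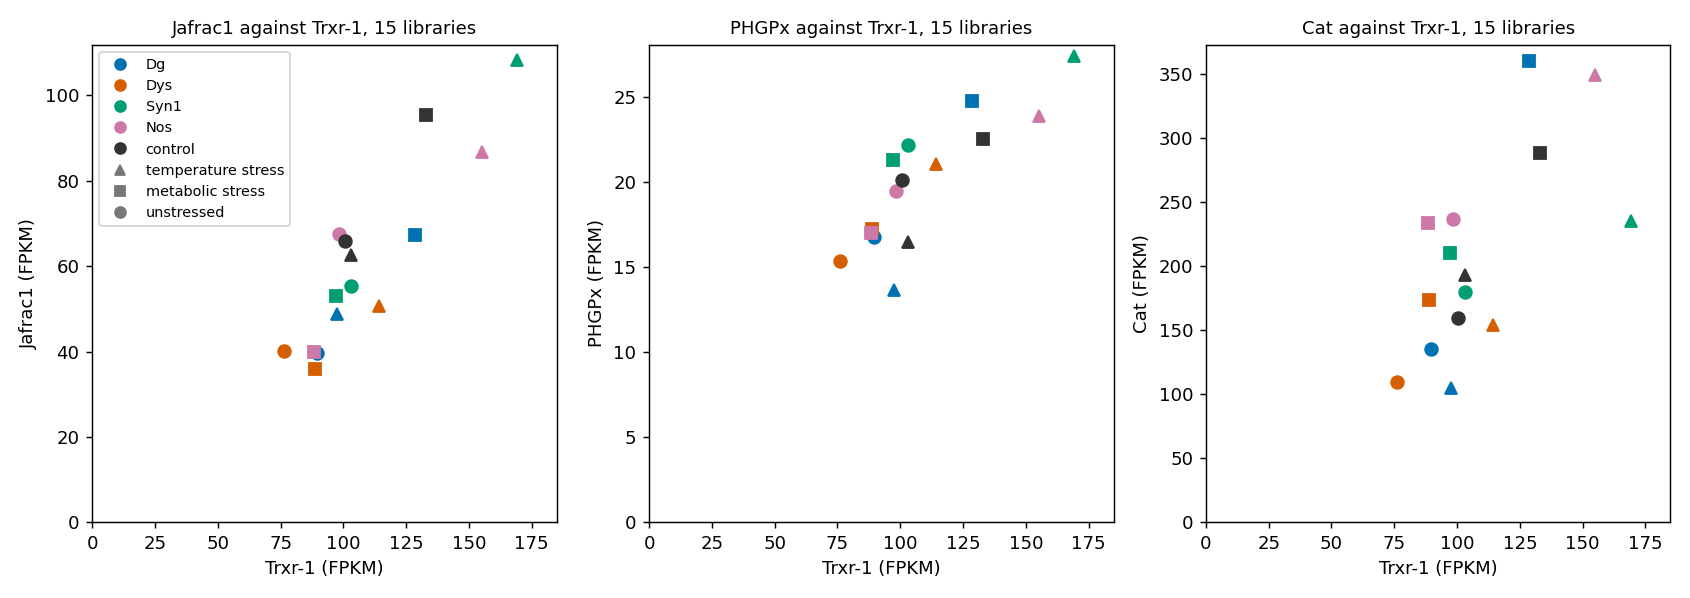
FPKM of *Jafrac1*, *PHGPx* and *Cat* (y axes) against FPKM of *Trxr-1* (x axes) in the 15 libraries, with colours for genotypes and markers for conditions. The heated *Syn1* library has 169 FPKM of *Trxr-1*, 108 of *Jafrac1* and 27.4 of *PHGPx*, each the highest of the 15, and the unstressed *Dys* library has the lowest *Trxr-1* at 76.2.

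Marker lists for tissues moved with these loci. The summed FPKM of the flight muscle markers (6 of 8 listed genes found, none at 0 in any library) correlated with *Cat* (r = 0.75, rho = 0.83, permutation p = 0.00137 and 0.0003, adjusted over 56 relations 0.0192 and 0.0056), *Jafrac1* (r = 0.72, rho = 0.81, adjusted p = 0.0225 and 0.00742) and *PHGPx* (r = 0.70, rho = 0.75, adjusted p = 0.0305 and 0.0249), and *Trxr-1* had r = 0.63 and rho = 0.67 (adjusted p = 0.0873 and 0.0533). The testis markers (4 of 9 found, none at 0) ran the other way with *Jafrac1* (r = -0.83, rho = -0.85, adjusted p = 0.00448 for both) and *Trxr-1* (r = -0.72, rho = -0.72, adjusted p = 0.0225 and 0.0316). Without the 2 farthest libraries r was 0.68 (*Cat*), 0.76 (*Jafrac1*), 0.72 (*PHGPx*) and 0.59 (*Trxr-1*) for muscle, and -0.80 (*Jafrac1*) and -0.63 (*Trxr-1*) for testis. With the testis markers *Cat* had r of -0.60 and *PHGPx* -0.48 (adjusted p = 0.103 and 0.221). The muscle sum spanned 582 to 1184 FPKM for *Dg*, 388 to 613 for *Dys*, 772 to 903 for *Syn1*, 873 to 1135 for *Nos* and 641 to 985 for control. Its largest parts were *Mhc* (mean 290 FPKM) and *Tm2* (270). Its smallest were the joint loci of *CG30440* and *TpnC4* (50.6) and of *CG14182* and *fln* (9.09), so the sum mainly follows the first 2 genes. The testis sum spanned 1364 to 1521 for *Dg*, 1663 to 2104 for *Dys*, 1204 to 1640.1 for *Syn1*, 1081 to 1418 for *Nos* and 1100.4 to 1407 for control. The Malpighian tubule markers (3 of 4 found) correlated with *Cat* (r = 0.77, rho = 0.62, adjusted p = 0.0153 and 0.0901). *Vha68-2*, a proton pump subunit gene, made the largest part of that sum, with a mean of 150 FPKM. The joint locus of *CG10175* and *Irk2* had 72.8 and *Irk3* 24.7. *Cat* was highest in the metabolic *Dg* library and lowest in the heated *Dg* library. In these, *Vha68-2* had 214 and 124 FPKM, *Irk3* 29.0 and 25.2, and the joint locus of *CG10175* and *Irk2* 72.2 and 76.4. The sum thus mainly follows *Vha68-2*, and the relation of each alone to *Cat* was not tested. The part of these tissues in the levels of the 4 loci was not tested.

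Mutants were compared with control over the 3 conditions in the same fit, and the 4 comparisons share the 3 control libraries. By adjusted p, 1 of 7 members was called for *Dg* (24.4% of all loci called), 1 for *Dys* (41.9%), 0 for *Syn1* (10.6%) and 1 for *Nos* (10.3%), each lower than control. In *Syn1* limma also passed 0 members at an unadjusted p under 0.05, where it passed 19.5% of all loci. Against a 2-fold change at unadjusted P under 0.1, no member passed in any mutant, beside 2.54% of all loci for *Dg*, 3.86% for *Dys*, 1.82% for *Syn1* and 1.96% for *Nos*. The members' median log2 change was -0.26 for *Dg*, -0.28 for *Dys*, 0.001 for *Syn1* and -0.02 for *Nos*, while that of all loci lay between -0.02 and 0.004.

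The *Sod2* joint locus (chromosome 2R, 12658736 to 12663429 as listed) was lower in *Nos* mutants. It had 160.1, 133 and 236 FPKM in the temperature, metabolic and unstressed *Nos* libraries, against 231, 703 and 503 in control. *Nos* was below control in 3 of 3 conditions, although the highest *Nos* library and the lowest control library overlap. The difference passed 2-fold on the diet (log2 ratio -2.40, where 9.72% of all loci passed) and unstressed (-1.09, where 5.92% passed). The fitted log2 change was -1.34 (SE 0.34, 95% interval -2.09 to -0.59, adjusted p = 0.0431). The call was lost without the unstressed control library (adjusted p = 0.144), without the metabolic control library (-0.94, adjusted p = 0.153) and without the metabolic *Nos* library (adjusted p = 0.176). It was also lost when all unstressed (adjusted p = 0.355) or all metabolic libraries (-0.81, adjusted p = 0.159) were left out.

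The other mutants were not called at this locus. *Syn1* was below control in 3 of 3 conditions, and *Dg* and *Dys* were below it on the diet and unstressed but above it in the heat (log2 ratios 0.29 and 0.11). *Dg* had 284, 175 and 258 FPKM (temperature, metabolic, unstressed), with a metabolic log2 ratio of -1.998, where 10.0% of all loci were past 2-fold, and its adjusted p was 0.100037 (change -0.89, SE 0.34). *Dys* had 249.6, 282 and 317, with a metabolic ratio of -1.32 (16.0% of all loci past 2-fold) and a fitted change of -0.62 (SE 0.34, adjusted p = 0.18). *Syn1* had 209, 363 and 287, and a fitted change of -0.64 (SE 0.34, adjusted p = 0.349). Without the heated control library the change passed in *Dg* (-1.29, adjusted p = 0.0226), *Dys* (-1.02, adjusted p = 0.0318) and *Syn1* (-1.04, adjusted p = 0.0905). *Dg* also passed without its own heated library (-1.22, adjusted p = 0.0483) and without the metabolic *Nos* library (-0.89, adjusted p = 0.089).

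This locus cannot be read as *Sod2* alone. *Sfp53D*, 1 of its 3 genes, is annotated as a seminal fluid protein gene, and *unc-104* encodes a kinesin. Of the 9 RefSeq accessions listed for the locus, 1 belongs to *Sod2*, 1 to *Sfp53D* and 7 to *unc-104*. Its level followed that of 3 accessory gland loci, *Acp26Aa*, *Acp70A* and the joint locus of *Acp62F* and *Mrtf* (3 of 7 listed genes found, none at 0), which encode seminal proteins. Their summed FPKM was 366, 349 and 907 for *Nos* (temperature, metabolic, unstressed), against 632, 5027 and 2608 for control. *Dys* had 577, 1122 and 1075, *Syn1* 659.7, 2241 and 776, and *Dg* 1098, 516 and 1086. The unstressed *Syn1* sum holds only *Acp26Aa* (470) and *Acp70A* (306), because the value of the joint locus of *Acp62F* and *Mrtf* was missing there. That sum is therefore too low beside the others, and the correlations that follow include it as it is. Over the 15 libraries r was 0.96 and rho 0.90 (permutation p = 1e-05, the smallest that 100000 resamples can give, and 2e-05; adjusted over 56 relations 0.00056 and 0.00112). It was 0.91 without the 2 farthest libraries and 0.96 after removal of genotype and condition means. The part of accessory gland RNA in the values of the locus was not tested.

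**Figure D4:**
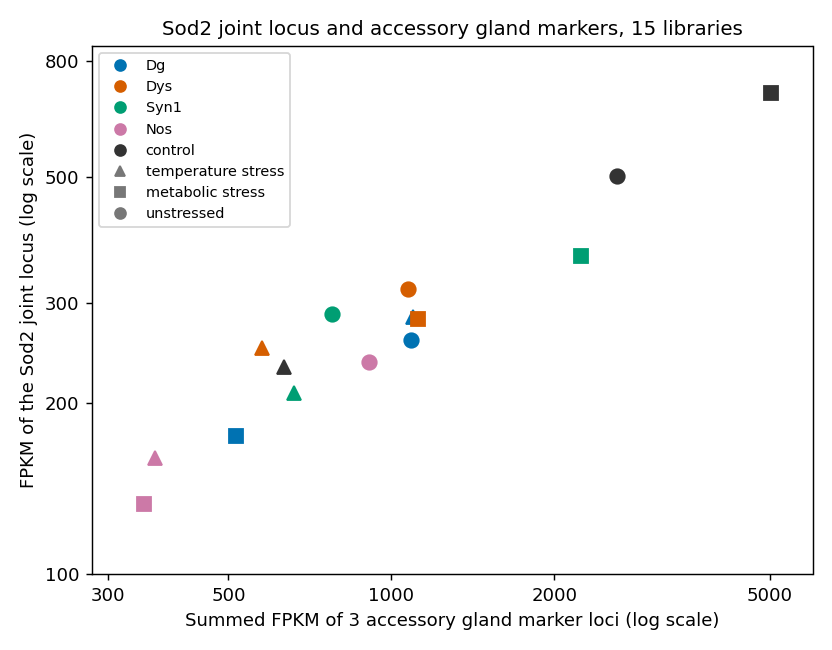
FPKM of the *Sod2* joint locus (y axis, log scale) against the summed FPKM of 3 accessory gland marker loci (x axis, log scale) in the 15 libraries, with colours for genotypes and markers for conditions. The metabolic control library is highest on both axes (5027 and 703), and the metabolic *Nos* library is lowest on both (349 and 133). The sum of the unstressed *Syn1* library lacks the joint locus of *Acp62F* and *Mrtf*, whose value was missing there.

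*Jafrac1* (chromosome X, 13223717 to 13228018 as listed) was lower in *Dys* mutants. It had 50.7, 35.8 and 40.0 FPKM in the temperature, metabolic and unstressed *Dys* libraries, against 62.5, 95.3 and 66.0 in control. The largest difference was on the yeast diet (log2 ratio -1.39, where 16.0% of all loci were past 2-fold). The fitted log2 change was -0.80 (SE 0.31, interval -1.49 to -0.10, adjusted p = 0.0749), in a comparison where 41.9% of all loci were called. The call was lost without any of 5 libraries, the unstressed control (adjusted p = 0.152), the metabolic control (-0.51, adjusted p = 0.314), or the unstressed (0.124), heated (0.144) or metabolic (0.199) *Dys* library. It was also lost when all unstressed (adjusted p = 0.27) or all metabolic libraries (-0.50, adjusted p = 0.176) were left out.

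In the other mutants *Jafrac1* was not called. *Dg* was below control in 3 of 3 conditions with a change of -0.52 (SE 0.31, interval -1.22 to 0.17, adjusted p = 0.275). *Nos* was above control in the heat and unstressed (log2 ratios 0.46 and 0.03) and below it on the diet, where the ratio was -1.24, and its fitted change was -0.25 (SE 0.31, adjusted p = 0.726). *Syn1* was above control in the heat (0.78) and below it on the diet (-0.83) and unstressed (-0.25), with a fitted change of -0.10 (SE 0.31, adjusted p = 0.917).

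*Keap1* (chromosome 3R, 12879479 to 12910911 as listed) was the member called in *Dg*, where it was lower. The libraries with this label had 2.77, 2.72 and 3.20 FPKM (temperature, metabolic, unstressed), against 3.34, 4.05 and 3.97 in control. The fitted log2 change was small, -0.29 (SE 0.10, interval -0.52 to -0.07, adjusted p = 0.0711), where 24.4% of all loci were called, and on this scale the change of a gene at such a low level is understated. The call was lost without the unstressed (adjusted p = 0.186) or metabolic (0.21) control library and without the unstressed (0.123), heated (0.12) or metabolic (0.197) *Dg* library. It was also lost when all unstressed (adjusted p = 0.352), all heated (0.132) or all metabolic (0.302) libraries were left out. In *Dys*, *Syn1* and *Nos* the *Keap1* changes were -0.03, 0.003 and -0.02, with 95% intervals of -0.25 to 0.19, -0.22 to 0.22 and -0.24 to 0.20.

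*Cat*, *Trxr-1*, *PHGPx* and the *Jafrac2* joint locus were not called in any mutant. *Cat* (chromosome 3L, 18794867 to 18821489) was below control in 3 of 3 conditions in *Dys*, with 154, 173 and 109 FPKM against 193, 288 and 159, and a fitted change of -0.53 (SE 0.33, interval -1.26 to 0.20, adjusted p = 0.237). In *Nos* it was above control in the heat (349 against 193) and unstressed (237 against 159) and below it on the diet (233 against 288), with a fitted change of 0.37 (SE 0.33, adjusted p = 0.59). In *Dg* the order was reversed, with 105 against 193 in the heat, 359.9 against 288 on the diet and 135 against 159 unstressed. Without the metabolic *Dg* library *Cat* passed as lower both in *Dg* (-0.72, adjusted p = 0.0935) and in *Dys* (-0.53, adjusted p = 0.0975).

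*Trxr-1* (chromosome X, 8134583 to 8142134) differed from control by fitted changes of -0.10 for *Dg*, -0.28 for *Dys*, 0.10 for *Syn1* and -0.01 for *Nos* (SE 0.22 each), and none of the 95% intervals reached 2-fold. The averages hide opposite signs, since in *Syn1* and *Nos* it was above control in the heat (log2 ratios 0.71 and 0.58) and below it on the diet (-0.45 and -0.58). *PHGPx* (chromosome 3L, 3317953 to 3335199) likewise had ratios of 0.70 and 0.51 in the heated *Syn1* and *Nos* libraries and of -0.08 and -0.39 on the diet. Its fitted changes lay between -0.13 in *Dys* and 0.25 in *Syn1* (SE 0.22). The *Jafrac2* joint locus (chromosome 3L, 3042282 to 3090431) differed from control by fitted changes of 0.19 for *Dg*, -0.01 for *Dys*, -0.25 for *Syn1* (its failed metabolic value missing) and -0.05 for *Nos*.

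**Figure D5:**
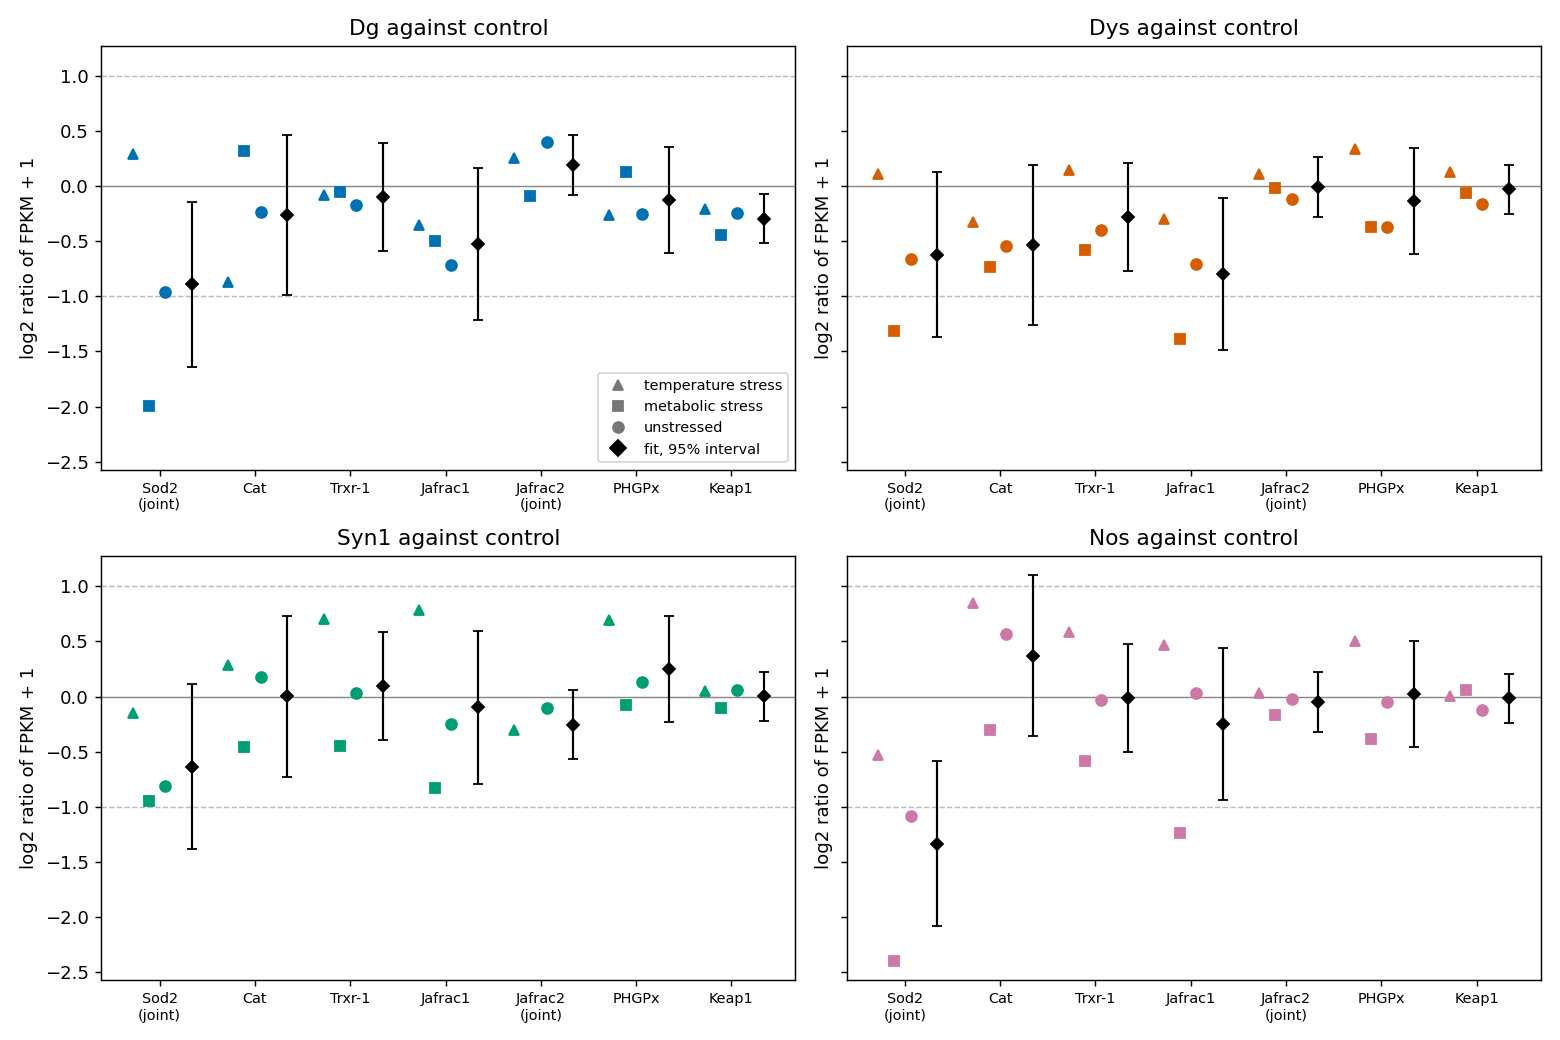
Log2 ratio of FPKM + 1 (y axis) of each mutant to the control library of the same condition for each locus (x axis), 1 panel for each mutant. Coloured markers are conditions, black diamonds are the limma change over the 3 conditions with its 95% interval, and dashed lines mark 2-fold; the *Sod2* joint locus reaches -2.40 in the metabolic *Nos* library, and the 95% interval lies below 0 for it in *Dg* and *Nos*, for *Jafrac1* in *Dys* and for *Keap1* in *Dg*.

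Over the 22 ratios of 1 library to another, the members gave 152 values, of which 8 were at least 2-fold, while 6.69% of the values of all loci were. The *Sod2* joint locus gave 5 of these 8, *Jafrac1* 2 (*Dys* and *Nos* on the yeast diet) and *Cat* 1. On the diet, 5 of the 8 set a mutant against control, and the metabolic control library had the highest value of the *Sod2* joint locus among all 15.

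Each member was also set beside the loci with a mean of at least 5 FPKM by Pearson's r over the libraries. The nearest was *CG15116* for the *Sod2* joint locus (r = 0.98), the joint locus of *CG31122*, *Vha100-2* and *fru* for *Cat* (0.92), *eIF2B-gamma* for *Trxr-1* (0.89) and *Elongin-C* for *Jafrac1* (0.95). It was *garz* for the *Jafrac2* joint locus (0.88 over 14 libraries), the joint locus of *CG6574* and *SelR*, a methionine sulfoxide reductase gene, for *PHGPx* (0.89) and *CR9284* for *Keap1* (0.86). Among 4827 loci, *Jafrac1* ranked 3 by likeness to *Trxr-1* (r = 0.89). These are the highest of many values and carry no test.

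Of a wider list of 63 gene symbols for oxidant defence, 38 loci were analysed, 27 of which name 1 gene, and 24 (63.2%) were called in at least 1 of the 6 comparisons, as were 67.1% of all loci. By adjusted p, 3 were higher and 5 lower under temperature stress, 4 higher and 0 lower under metabolic stress, and 3 higher and 1 lower in *Nos*. *Dg* had 4 higher and 3 lower, *Dys* 3 higher and 13 lower, and *Syn1* 3 higher and 0 lower. In all, 21.1% of the list was called in the heat (25.9% of all loci), 10.5% on the diet (2.93%), 18.4% for *Dg* (24.4%), 42.1% for *Dys* (41.9%), 7.89% for *Syn1* (10.6%) and 10.5% for *Nos* (10.3%). The median log2 change of the list was -0.02 in the heat, 0.22 on the diet, and, by mutant, -0.02 (*Dg*), -0.19 (*Dys*), -0.08 (*Syn1*) and 0.06 (*Nos*), against at most 0.02 in size for all loci. These counts move with single libraries. Under temperature stress 5 loci were called without the unstressed *Syn1* library, 4 without the unstressed *Nos* and 5 without the heated *Nos* library. Under metabolic stress 0 were called without the unstressed *Dg* library, 1 without each of the unstressed control, metabolic control, metabolic *Dg*, unstressed *Dys* and metabolic *Dys* libraries, 2 without the unstressed *Syn1*, 10 without the heated *Syn1* and 13 without the metabolic *Syn1* library. In *Dg* 3 were called without the metabolic control or the unstressed *Dg* library and 4 without the heated *Dg* library, and in *Dys* 10 without the metabolic control library. In *Syn1* 5 were called without the metabolic *Dys* or metabolic *Syn1* library, and in *Nos* 7 without the metabolic *Syn1* and 2 without the heated *Nos* library.

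Among superoxide dismutases, the joint locus of *Sod3* (the extracellular enzyme) and *sprt* fell by 0.59 on the log2 scale in the heat (SE 0.13, adjusted p = 0.0122) and rose by 0.60 on the yeast diet (SE 0.13, adjusted p = 0.0537). It had 20.6, 56.4 and 25.7 FPKM in *Dys* (temperature, metabolic, unstressed) and 27.9, 74.1 and 49.2 in *Dg*, against 40.0, 113 and 72.8 in control, and was called lower in *Dys* (-1.13, adjusted p = 0.00109) and in *Dg* (-0.55, adjusted p = 0.0488). *CG31028* (*Rsod*, a relative of the family) was higher in *Dg* (0.86), *Syn1* (0.45) and *Nos* (0.44) and lower in *Dys* (-0.35), a value outside the 8 largest there that was added after it was seen.

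Among peroxidases, *Prx2540-2*, a peroxiredoxin, was called in 5 of the 6 comparisons. It had 8.40, 22.1 and 15.5 FPKM in *Dys* (temperature, metabolic, unstressed), 7.67, 50.7 and 26.8 in *Dg*, and 13.5, 56.9 and 33.8 in *Nos*, against 30.7, 186 and 41.3 in control. It was called lower in *Dys* (-2.04, SE 0.30, adjusted p = 0.0011), *Dg* (-1.44, adjusted p = 0.0108) and *Nos* (-1.04, adjusted p = 0.0749), and was lower in the heat (-1.02, SE 0.24, adjusted p = 0.0155) and higher on the diet (0.95, SE 0.24, adjusted p = 0.0846). Near-identical copies of this gene lie beside it, and how their reads were shared is not stated. *Pxn*, the peroxidasin of extracellular matrix, was higher in *Dys* (2.49, SE 0.36, adjusted p = 0.000971), *Syn1* (2.00, adjusted p = 0.00655), *Nos* (1.99, adjusted p = 0.00858) and *Dg* (1.04, adjusted p = 0.0777). It had 18.9, 32.6 and 13.8 FPKM in *Dys* (temperature, metabolic, unstressed), against 0.524, 4.92 and 5.14 in control. The files list 4 loci named *Pxn*, and these values are of the one with the highest mean. *Pxn* is also on the list of blood cell markers, whose 3 other loci summed to 1.66 to 2.28 FPKM in *Dys* and 3.27 to 10.6 in control.

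Other loci of the list were called with changes of many sizes. *MtnB*, a metallothionein that binds metal ions, rose by 2.83 on the log2 scale on the diet (SE 0.51, adjusted p = 0.0279), with 63.9, 10.9, 26.7, 24.3 and 20.4 FPKM in *Dg*, *Dys*, *Syn1*, *Nos* and control, against 1.91, 3.43, 1.42, 1.75 and 6.49 unstressed. The joint locus that includes *Gclc*, the catalytic subunit for glutathione synthesis, was higher on the diet (0.64, adjusted p = 0.049). *Pk92B* (*Ask1*, a kinase upstream of the JNK and p38 pathways) was higher in *Nos* (2.02, adjusted p = 0.00334), *Dg* (1.66, adjusted p = 0.00638) and *Syn1* (1.31, adjusted p = 0.0291). In *Dys*, the joint locus that includes *MtnA* (-1.37), *MtnC* (-1.11), *MtnD* (-1.004) and *dj-1beta* (-0.77, a DJ-1 protein) were lower, and *Fer3HCH*, mitochondrial ferritin, was higher (0.73). In *Dg*, the joint locus of *CG30395* and the glutaredoxin gene *Grx-1* was lower (-0.84, adjusted p = 0.0304) and *Duox*, the dual oxidase that makes hydrogen peroxide, was higher (0.55, adjusted p = 0.0416). In the heat, *CG6888* (-0.82), *Duox* (-0.40) and *bsk* (the JNK kinase, -0.23) were lower, and *Fer3HCH* (0.34), the joint locus of the metal transporter gene *Mvl* (0.31) and that of *CCS*, a copper chaperone (0.29), were higher. Heated *Dg*, *Dys*, *Syn1*, *Nos* and control had 51.8, 54.0, 10.9, 22.8 and 45.7 FPKM of *CG6888*, against 87.6, 61.3, 45.9, 52.2 and 46.9 unstressed. In the same order the *CCS* joint locus had 2.79, 2.16, 2.45, 2.38 and 2.09, against 2.53, 1.47, 1.39, 1.38 and 2.19. *CG6888*, *Duox*, *Gclc* and *Mvl* are each named at 2 loci. The values given are of the one with the highest mean, and the other was not examined.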

How the data were processed

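The authors deposited 1 FPKM table for each of 15 poly-A libraries, whose tool and build are not given in the sources used here. The study's methods describe STAR mapping to BDGP6 and DESeq2 on transcript counts, do not mention FPKM, and DESeq2 was not used here. The listed positions of 2 of the 7 members overlap the same gene in RefSeq's Release 6 table. Values whose status was not OK were set missing, and named loci with OK in at least 14 libraries were kept. FPKM are not counts, so log2(FPKM + 1) was fitted with limma 3.58.1 (R 4.3.3), with genotype and treatment as terms and 8 residual degrees of freedom. Calls used Benjamini-Hochberg adjusted p under 0.1 over all loci. The test against 2-fold at unadjusted P under 0.1 was a further rule. With 1 library per group, p-values measure the spread left between libraries after genotype and treatment. Correlations used 100000 permutations (scipy 1.17.1). These exchanged all libraries freely, so their p-values, also for the marker lists, do not allow for shared genotypes and conditions. The fit was tested on simulated data. All members were named, and at most 8 called pathway loci per comparison by size. For a pathway or marker gene named at several loci, only the one with the highest mean FPKM was used. Members and lists were chosen with earlier results of these data known. Alternatives covered pseudocount, filter, scaling, prior, model terms and each library left out.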

Additional observations from a re-analysis of the deposited data

Results flagged for a closer look

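In the unstressed libraries, the *Jafrac2* joint locus had 99.0 FPKM in *Dg*, against 74.5 in the nearest of the other 4 libraries, a gap of 0.814 of the whole range that stood out from the others. It was the only 1 of 21 sets of 4 or 5 libraries with such a gap, chance gives about 1 in 20, and the libraries of a treatment differ in genotype.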

How the results depend on the processing

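Of 994 recomputed values for 42 changes of the members, 892 kept direction and side of the threshold, 20 lost the call, 16 gained one, 62 changed sign, none of them in a called result, and 4 moved by more than the SD over treatments in unstressed libraries alone (*Trxr-1* in *Dg* -0.17, *Jafrac1* in *Dg* -0.72, the *Jafrac2* joint locus in *Syn1* -0.10 and *Keap1* in *Nos* -0.12). In *Dg*, 2 members rather than 1 were called with median-ratio scaling, with loci of at least 1 FPKM and with a robust prior, as the *Sod2* joint locus then passed. With libraries left out, which was chosen after seeing the data, members called ranged 0 to 1 for temperature stress, 0 to 2 for *Dg*, 0 to 2 for *Dys*, 0 to 1 for *Syn1* and 0 to 1 for *Nos*. The *Jafrac2* joint locus in *Dys* was 0.023 with median-ratio scaling, and in unstressed libraries alone *Jafrac1* was 0.032 and *PHGPx* -0.047 in *Nos*. Changes that turned sign without some library ranged as follows on the log2 scale. For *Cat* they were -0.72 to 0.16 in *Dg* and -0.14 to 0.23 in *Syn1*. For *Jafrac1* they were -0.60 to 0.25 in *Nos*, -0.54 to 0.27 in *Syn1* and -0.12 to 0.26 under metabolic stress. For the *Jafrac2* joint locus they were -0.066 to 0.10 in *Dys*, -0.093 to 0.015 in *Nos* and -0.15 to 0.035 under metabolic stress. For *Keap1* they were -0.11 to 0.038 in *Dys*, -0.092 to 0.035 in *Nos*, -0.049 to 0.055 in *Syn1* and -0.041 to 0.055 under metabolic stress. For *PHGPx* they were -0.38 to 0.12 in *Dg*, -0.22 to 0.23 in *Nos* and -0.029 to 0.22 under metabolic stress. For the *Sod2* joint locus they were -0.38 to 0.032 under metabolic stress. For *Trxr-1* they were -0.30 to 0.10 in *Dg*, -0.31 to 0.27 in *Nos* and -0.21 to 0.37 in *Syn1*. Of the wider list, 0 loci rather than 8 were called for temperature stress and 1 rather than 4 for metabolic stress with no genotype term, and 8 for metabolic stress with loci of at least 1 FPKM. The causes were not tested. The libraries carry no replicate numbers, and the genotype and treatment terms already match each stressed library to its genotype and each mutant library to its treatment.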
